A study of Mus musculus with 66 samples.

Results

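The insulin-like growth factor (IGF) system was followed through 10 genes, namely the ligands Igf1 and Igf2, the receptors Igf1r and Igf2r, and the binding proteins Igfbp2, Igfbp3, Igfbp4, Igfbp5, Igfbp6 and Igfbp7. They were chosen by gene symbol, and all 10 were found among the 22489 genes of the mRNA-Seq table. The table held 20 libraries of C2C12, an immortalised mouse myoblast line that fuses into myotubes when serum is withdrawn. Cells without a transgene (WT) and 9 lines with an added GFP-H3 gene were each sequenced once while growing and once after differentiation, so that a state held 10 libraries and each line had 1 library per state. The GFP-H3 lines carried the variants H3mm16, H3mm13, H3mm12, H3mm11, H3mm7, H3.3, H3t, H3.2 or H3.1 with GFP at the N-terminus, driven by a doxycycline-inducible promoter and integrated by a transposon, and they were selected with G418 in doxycycline and sorted for GFP. WT cells had neither the transgene nor this selection. Growing cells were kept in 20% serum and taken before confluence, and differentiated cells were taken 48 h after the change at confluence to 2% horse serum. H3.1, H3.2 and H3t have the H3.1/H3.2 type of sequence (3 lines), and the remaining 6 variants the H3.3 type. Values of H3t come from columns headed H3mmT, taken as this line because every other line had a column of its own name. Nothing states that the lines were made more than once, so p-values here measure the spread between single cultures of different lines.

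IGF1 and IGF2 are secreted peptides that bind the IGF1 receptor, a tyrosine kinase that signals through insulin receptor substrates, PI3-kinase and Akt. The IGF2 receptor, also known as the cation-independent mannose-6-phosphate receptor, has no kinase domain and takes IGF2 into the cell for breakdown in lysosomes. Most IGF in tissue fluid is held by binding proteins, which extend its life and limit or deliver it to the receptor, and proteases free it again. In myoblast cultures IGF2 made by the cells themselves is known to drive differentiation, and IGFBP5 is a known product of differentiating myoblasts.

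Values are FPKM, fragments counted on a transcript relative to its length and to the mapped fragments of the library, so levels of different genes can be set side by side, but the number of reads behind a value is unknown. The summed FPKM of a library ranged from 409319 in WT growth to 894105 in differentiated H3mm7, and 13858 to 16865 genes were above 0. An exact 0 was not always a measurement of absence. Of genes whose median was over 20 FPKM where they were above 0, 44 were listed at 0 in at least 1 library, among them Actr3, which encodes a subunit of the Arp2/3 actin complex and was listed at 0 in most GFP-H3 libraries. Labelled cell type and state were checked against marker genes. The summed FPKM of 8 myoblast and muscle genes ranged from 293 to 860 in growth and from 2507 to 11435 after differentiation, and that of 4 proliferation genes from 342 to 609 and from 3.73 to 75.4. The liver markers Alb and Apoa1 summed to at most 0.14 FPKM, blood genes (Ptprc, Cd68) summed to at most 3.91 FPKM, endothelial genes (Pecam1, Cdh5) to at most 7.61, epithelial genes (Epcam, Krt8, Krt18) to at most 3.41, adipocyte genes (Adipoq, Plin1, Pparg, Fabp4) to at most 34.9, neuronal genes (Rbfox3, Tubb3) to at most 128, nearly all of it Tubb3, and fibroblast and matrix genes (Pdgfra, Col1a1, Dcn) to at most 182. The last 2 sums moved with differentiation. The neuronal median went from 107 to 18.2 FPKM and that of fibroblast and matrix genes from 7.62 to 84.3, with Dcn, a matrix proteoglycan, higher in 10 of 10 lines (4.50 ± 0.41 SE on the log2 scale, limma adjusted p = 7.96e-09). Their part in the changes of the members was not tested.

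By the mm9 annotation, Igfbp2 (chr1:72871077-72899048, plus strand) and Igfbp5 (chr1:72904506-72921458, minus strand) face each other tail to tail with 5457 bases and no annotated gene between them. Igf2 (chr7:149836673-149852721, minus strand) lies in an imprinted cluster, 11839 bases from Ins2 and 72624 bases from H19. No annotated gene lies wholly within either gap. Igf2 holds the miRNA gene Mir483 and overlaps the antisense gene Igf2as (149845598-149856261), which runs on into the gap before Ins2. Igf1r is on the same chromosome (chr7:75097713-75371484, plus strand), and Igf2r (chr17:12875272-12962530, minus strand) overlaps the antisense gene Airn. Igf1 is at chr10:87321010-87399792, Igfbp3 at chr11:7106089-7113926, Igfbp4 at chr11:98902558-98913969, Igfbp6 at chr15:101974793-101979942 and Igfbp7 at chr5:77778265-77837070. The use of strand in the mRNA-Seq is not given in the sources used here, so reads of Igf2 and Igf2r could not be told apart from those of their antisense partners, nor reads at the ends of Igf1 and Igfbp7 from those of Gm16176 and Polr2b, which overlap them on the opposite strand.

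Igfbp5 varied between lines much as Myod1 did (below), and MyoD and its relatives bind the E-box CANNTG, so promoters were searched for it. The windows were 250 bases before to 50 bases after each RefSeq start (GRCm38.p6), both strands being covered because the letters read alike on either. Of 32851 windows of this length, 72.3% hold CANNTG, so a match is common. All 10 members were found in 14 windows, and 10 of these windows held a match, a share near that of all windows. By gene, 8 members had a match in at least 1 window, the exceptions being Igf1r and Igfbp7. The count by gene has no such background, since some genes have several windows. For the 6 members whose level moved by at least 1 on the log2 scale with differentiation (below), the match nearest a start is shown because these are the members whose transcript level changed most, with the E-box in capitals and 8 bases on each side.
Igfbp5, chr1:72874929-72874950, minus strand, E-box from base -77: tgcagctaCAACTGgctggcag
Igfbp2, chr1:72825398-72825419, plus strand, E-box from base 20: gccgcgcaCAGGTGacactgca
Igf2, chr7:142658786-142658807, minus strand, E-box from base 6: cgcctaccCAAGTGgattaatt
Igfbp4, chr11:99041062-99041083, plus strand, E-box from base -174: aggactttCAGATGttgtagcg
Igfbp6, chr15:102144005-102144026, plus strand, E-box from base -173: cttctgccCATATGcctgacat
Igf2r, chr17:12769700-12769721, minus strand, E-box from base -7: actcaggtCACGTGacgctccg
Which of several starts a gene used was not measured. Base 1 is the RefSeq start and base -1 the one before it. CAGCTG, the form of the E-box that MyoD is known to favour, was in 16.3% of all windows and, among the members, in the window of Igf1 only. A match is a description of the sequence and not a mapped site. Myod1 itself did not pass with differentiation (0.79 on the log2 scale, limma adjusted p = 0.169), being higher in 7 lines and lower in 3. A part of MyoD in the changes of the members was not tested.

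In growing cells the mean levels of 4 binding proteins were above those of all ligands and receptors, and Igfbp3 and Igfbp4 were below Igf1r, Igf2 and Igf2r. The highest was Igfbp2 with 376 ± 155 FPKM (SD, n = 10 lines, as in all values of this kind), followed by Igfbp7 with 255 ± 68.9, Igfbp6 with 113 ± 33.5 and Igfbp5 with 62.3 ± 52.6. Igf1r was at 5.80 ± 0.794 FPKM, Igf2 at 2.33 ± 1.85, Igf2r at 0.724 ± 0.324, Igfbp3 at 0.378 ± 0.367, Igfbp4 at 0.167 ± 0.126 and Igf1 at 0.0720 ± 0.0440. Of neighbours in this order, Igfbp7 and Igfbp6 had ranges that did not overlap, while the ranges of all other neighbours overlapped. After differentiation Igfbp5 led with 388 ± 173 FPKM, before Igfbp7 with 189 ± 64.9 and Igfbp2 with 137 ± 247, whose mean was set by 1 line. Igfbp6 followed with 51.9 ± 9.31 FPKM, Igf1r with 9.35 ± 3.61, Igfbp4 with 5.63 ± 8.10, Igf2r with 3.35 ± 1.59, Igfbp3 with 1.87 ± 1.83 and Igf1 with 0.0551 ± 0.0458. The ranges of Igfbp6 and Igf1r did not overlap, and those of the other neighbours did. Igf2 was between 14.2 and 150 FPKM in 8 lines and listed at 0 in 2 lines, and is therefore given by line and without a mean.

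**Figure D1:**
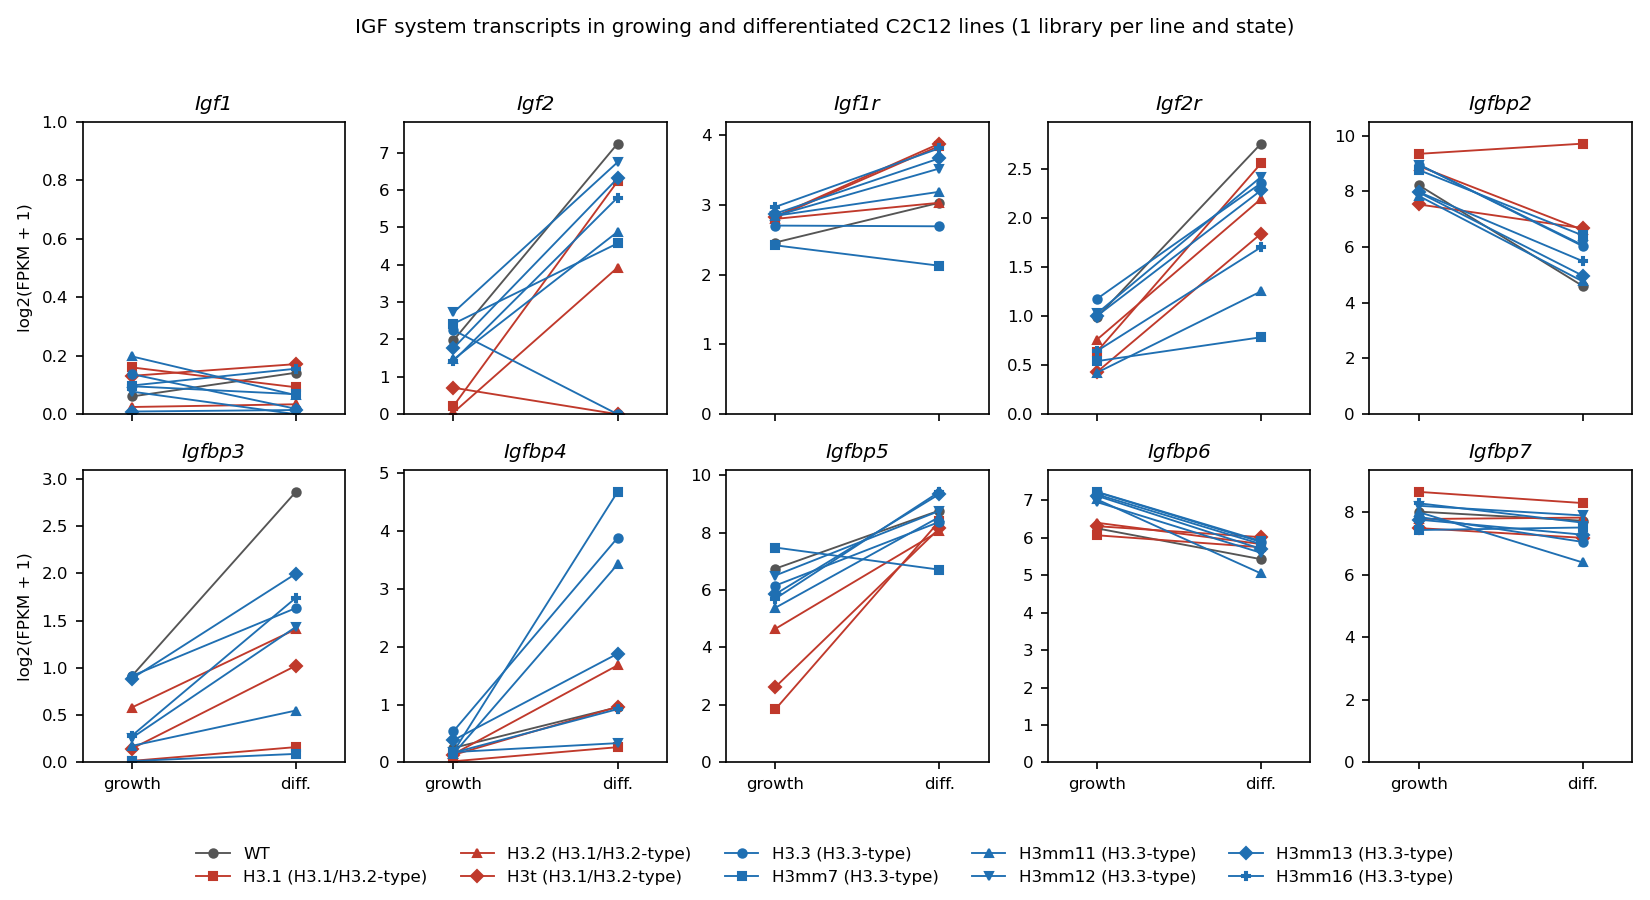
log2(FPKM + 1) of the 10 members in each of 20 libraries. Each point is 1 library and each line joins growth and differentiation (diff.) of the same cell line, red for H3.1/H3.2-type, blue for H3.3-type and grey for WT. Igfbp6 fell in 10 of 10 lines without overlap between states, Igfbp2 stayed high in the H3.1 line alone, and Igf2 is listed at 0 after differentiation in the H3t and H3.3 lines. Vertical scales differ between panels.

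The first comparison asked how the IGF system changed when the lines differentiated. Transcripts for Igf2, both receptors, Igfbp3, Igfbp4 and Igfbp5 rose, and those for Igfbp2, Igfbp6 and Igfbp7 fell (limma on log2(FPKM + 1) over 10 growth and 10 differentiated libraries, Benjamini-Hochberg adjusted p below 0.05). Such calls were common in these cells, since 58.6% of the 10954 genes tested passed the same threshold, 30.5% higher and 28.1% lower. All 9 members tested passed, with 6 higher and 3 lower. With a minimum difference of 1 (log2) as well, 6 of the 9 members passed against 17.3% of all genes, 4 higher (8.87% of all genes) and 2 lower (8.41%). Igf1 was below the filter of a mean of 1 FPKM. Igf2r, Igfbp3 and Igfbp4 were above it only through their differentiated libraries, so that these 3 had to be higher there. Their calls, and the part of Igf2r and Igfbp4 in the 4 higher, are therefore a description and no support for a rise. In these bulk samples, fewer cells that express a gene and less RNA per cell cannot be told apart.

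Of the ligands, Igf1 was near 0 throughout. It ranged from 0.00639 to 0.147 FPKM in growth, with a median of 0.0695, and from 0 to 0.126 after differentiation, with a median of 0.0474. Igf2, by contrast, was low in growth and one of the strongly rising genes of the system in most lines. In growth it was at 2.94 FPKM in WT, 0.166 in H3.1, 0.0326 in H3.2, 0.634 in H3t, 3.75 in H3.3, 4.36 in H3mm7, 1.76 in H3mm11, 5.61 in H3mm12, 2.41 in H3mm13 and 1.69 in H3mm16. After differentiation it was at 150 FPKM in WT, 74.1 in H3.1, 14.2 in H3.2, 22.8 in H3mm7, 28.5 in H3mm11, 106 in H3mm12, 78.5 in H3mm13 and 54.6 in H3mm16, and was listed at 0 in H3t and H3.3. The 8 lines with a value rose by between 5.23-fold in H3mm7 and 447-fold in H3.1, where the growth level was below 0.2 FPKM. On the log2(FPKM + 1) scale the difference was 3.07 ± 0.82 (SE, limma adjusted p = 0.00306), and it did not pass with a pseudocount of 0.01 FPKM (2.89, adjusted p = 0.172). Without the differentiated H3t and H3.3 libraries it was 4.21, a value that leaves libraries out for their Igf2 level and so has no test.

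Genes beside Igf2 were above 0 in the 2 libraries that list it at 0. H19, the noncoding RNA of the same imprinted cluster, was at 881 FPKM in differentiated H3t and 964 in H3.3, against 678 to 6619 over all 10 differentiated libraries. Ins2, upstream of Igf2, was at 3.04 and 0.670 FPKM in those libraries, against 0.670 to 7.13 over all 10, so that H3.3 was the lowest. H19 was at 27.6 to 799 FPKM in growth and rose in 9 of 10 lines, H3mm7 going from 799 to 769 FPKM, by 3.93 ± 0.64 (SE) on the log2 scale (limma adjusted p = 1.97e-05). Ins2 rose by 1.68 ± 0.24 (adjusted p = 4.33e-06). It was above the filter only through its differentiated libraries, so this call is a description. Other widely expressed genes, such as Actr3 and Morf4l2, were also listed at 0 in differentiated H3t and H3.3. Whether Igf2 was absent there was not tested.

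Both receptors rose, Igf1r in 8 of 10 lines and Igf2r in 10 of 10. The filter set the direction of Igf2r, so its call is a description. Igf1r had 4.35, 6.08 and 6.83 FPKM as its lowest, median and highest value in growth, and 3.37, 9.29 and 13.7 after differentiation. It was higher in 8 of 10 lines, by 0.52 ± 0.18 (SE) on the log2 scale (limma adjusted p = 0.0173), and lower in H3.3 and H3mm7. With each library scaled to the same sum its difference was 0.42 and no longer passed (adjusted p = 0.119). Igf2r, the receptor that clears IGF2, had 0.341, 0.628 and 1.26 FPKM in growth and 0.722, 3.72 and 5.77 after differentiation. It was higher in 10 of 10 lines, between 1.59-fold in H3mm7 and 8.79-fold in H3.1, with a difference of 1.25 ± 0.20 (SE, adjusted p = 2.10e-05). Igf1r made up a median of 90.05% of the summed receptor FPKM in growth and 74.2% after differentiation, so it remained the more abundant receptor transcript in all 20 libraries, with at least 55.4%.

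The 6 binding proteins changed places in order. Their summed FPKM was between 448 and 1121 in growth (median 782) and between 454 and 1539 after differentiation (median 684), the highest being differentiated H3.1. Igfbp2 made up a median of 43.8% of the sum in growth and 9.57% after differentiation, and Igfbp5 7.06% and 54.9%. Igfbp7 went from 34.0% to 23.2% and Igfbp6 from 15.8% to 6.10%, and Igfbp3 and Igfbp4 together stayed minor in every library, Igfbp4 reaching 5.42% in differentiated H3mm7.

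**Figure D2:**
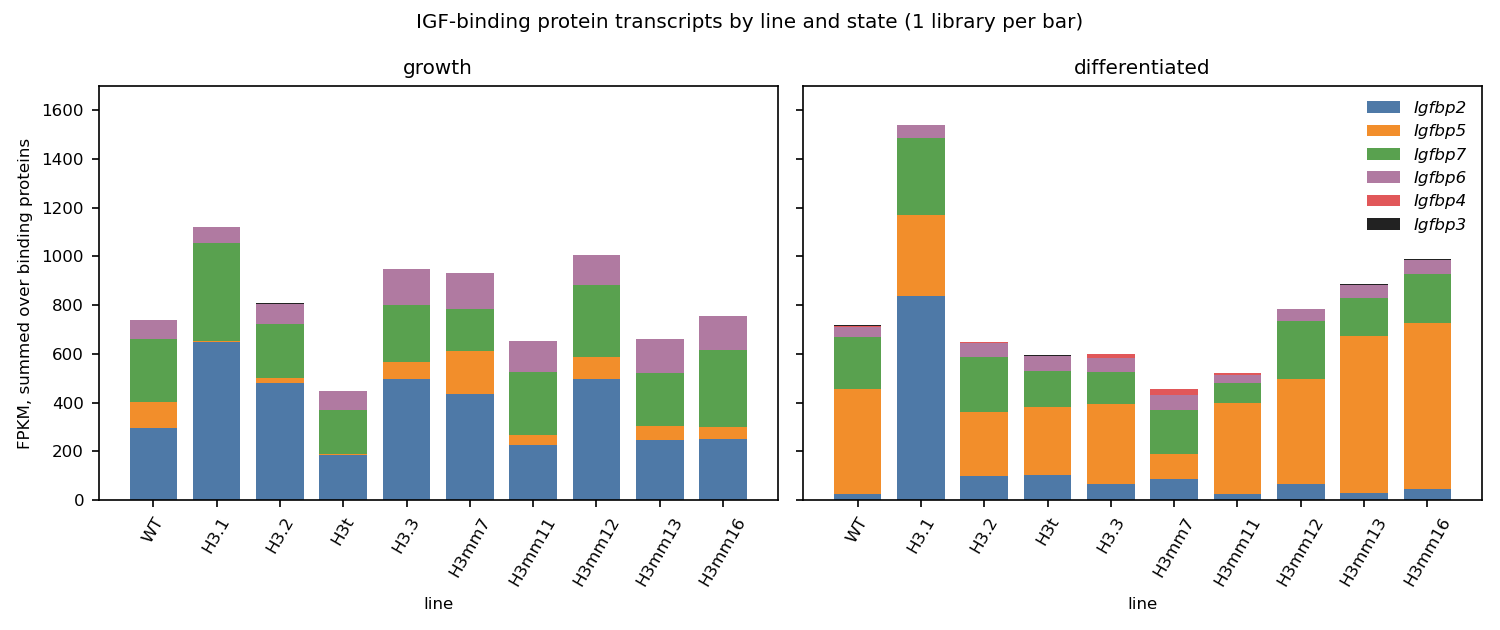
Summed FPKM of the 6 IGF-binding proteins in each line, growth on the left and differentiated on the right, 1 library per bar and 1 colour per gene. Igfbp2 (blue) and Igfbp7 (green) fill most of the growth bars, and Igfbp5 (orange) is the largest part of 8 of the 10 differentiated bars, the exceptions being H3.1, where Igfbp2 is, and H3mm7, where Igfbp7 is.

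Igfbp5, the binding protein of differentiating muscle, had 2.59, 53.8 and 177 FPKM as its lowest, median and highest value in growth, and 104, 353 and 682 after differentiation. It was higher in 9 of 10 lines, by 3.16 ± 0.58 (SE) on the log2 scale (limma adjusted p = 8.28e-05). H3mm7 went the other way, from 177 to 104 FPKM, being the highest line in growth and the lowest after differentiation. H3.1 rose most, from 2.59 to 335 FPKM. Lines were thus further apart in growth, with an SD of 1.80 on the log2 scale, than after differentiation, with an SD of 0.76.

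Igfbp2, which is known as an abundant binding protein of proliferating myoblasts, had 184, 366 and 649 FPKM in growth and 23.2, 65.2 and 836 after differentiation. It was lower in 9 of 10 lines, by between 1.81-fold in H3t and 12.8-fold in WT, and the fitted difference was -2.31 ± 0.47 (SE, limma adjusted p = 0.000256). The exception was H3.1, with 649 FPKM in growth and 836 after differentiation, where the other 9 differentiated libraries had at most 101 FPKM. Differentiated H3.1 also had the highest summed level of the 4 proliferation markers, 75.4 FPKM against 3.73 to 41.5 in the other 9, while its 8 muscle markers summed to 3127 FPKM, within the range of the others. WT had the next highest proliferation sum, 41.5 FPKM, and the lowest Igfbp2 of the 10 differentiated libraries, 23.2 FPKM. The part of remaining proliferating cells in the Igfbp2 level was not tested. Without the H3.1 line the difference was -2.61, a value that leaves a line out for its Igfbp2 level and so has no test. With each line left out in turn, the difference lay between -2.61 and -2.17, with limma adjusted p of at most 0.00121.

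Igfbp6, a binding protein with a known preference for IGF2, was the one member whose states did not overlap, against 17.6% of all genes tested (8.74% lower after differentiation). It had 66.1, 126 and 149 FPKM in growth and 32.1, 54.4 and 63.8 after differentiation, and it fell in 10 of 10 lines, by 1.23-fold in H3t to 4.03-fold in H3mm11. The difference was -1.07 ± 0.17 (SE, limma adjusted p = 1.02e-05). Igfbp7, which binds IGFs weakly and is secreted into the matrix, changed least of the 9. It had 172, 244 and 403 FPKM in growth and 83.4, 193 and 314 after differentiation, and was lower in 8 of 10 lines, by -0.47 ± 0.20 (SE, adjusted p = 0.0486). This call was lost when WT, H3t, H3.3, H3mm11, H3mm12, H3mm13 or H3mm16 was left out, with adjusted p between 0.0540 (WT) and 0.122 (H3mm11).

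Igfbp3 and Igfbp4 were at most 0.885 FPKM in growth. The filter set the direction of both, so their calls here are a description. Igfbp3, the main carrier of IGF in serum, rose in 10 of 10 lines to between 0.0645 FPKM in H3mm7 and 6.27 in WT, with a median of 1.68, by 0.87 ± 0.28 (SE) on the log2 scale (limma adjusted p = 0.0108). Igfbp4, which binds IGF and is known to hold it back from its receptor, also rose in 10 of 10 lines, by 1.68 ± 0.46 (SE, adjusted p = 0.00378), but to very different levels. After differentiation it was at 24.6 FPKM in H3mm7, 13.8 in H3.3, 9.75 in H3mm11, 2.68 in H3mm13, 2.20 in H3.2, 0.946 in H3t, 0.939 in WT, 0.894 in H3mm16, 0.260 in H3mm12 and 0.200 in H3.1. The highest 3 lines expressed H3.3-type variants, yet the 6 lines of that type ran from 0.260 to 24.6 FPKM, so that the spread within the type covered the H3.1/H3.2-type lines.

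**Figure D3:**
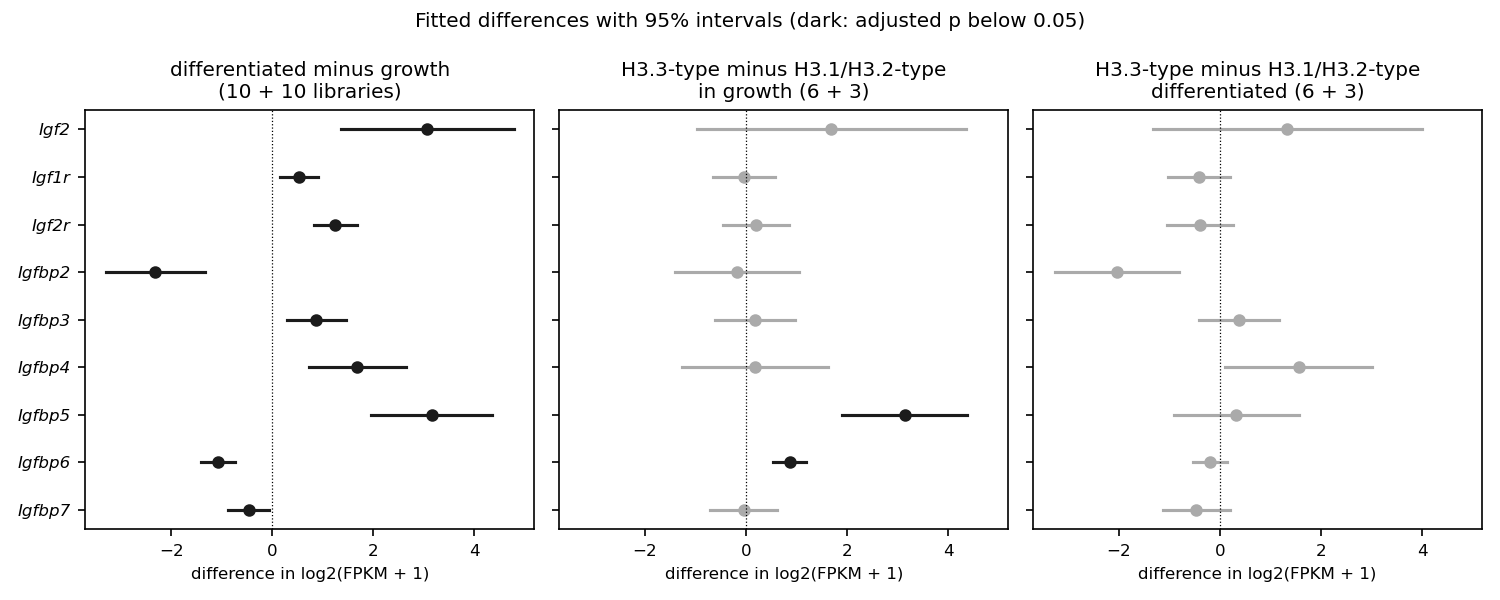
Fitted difference in log2(FPKM + 1) of 9 members with its 95% confidence interval, for differentiated minus growth (left, 10 and 10 libraries) and for H3.3-type minus H3.1/H3.2-type lines in growth (middle) and after differentiation (right, 6 and 3 lines each). Dark points passed at an adjusted p below 0.05, all 9 on the left, Igfbp5 and Igfbp6 in the middle and none on the right.

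The other genes of the pathway, a list of 44 with receptors, adaptors, kinases, proteases of binding proteins and neighbours of Igf2, were then set beside the members. Of 34 tested, 19 were higher after differentiation, 2 were lower and 13 did not pass, where 58.6% of all genes passed, and 5 passed with a minimum difference of 1, where 17.3% did. Counted without direction, these shares were near those of all genes. By direction, 19 of the 34 were higher and 2 lower, where 30.5% of all genes were higher and 28.1% lower. The list was chosen with earlier results of these data known, so this split is a description. The median difference of the 34 was 0.35 on the log2 scale, beside 0.04 over all genes tested. With each library scaled to the same sum, 13 in place of 21 passed, beside 5466 in place of 6419 of all genes. Under this scaling 40.2% of the calls over all genes were higher, in place of 52.0%. The directions of the 13 are not given here. Besides H19 and Ins2, the largest rises were those of Pappa2, a protease that cleaves IGFBP5 (1.44 ± 0.18 SE, limma adjusted p = 5.8e-07), Akt2, a kinase downstream of PI3-kinase (1.22 ± 0.19, adjusted p = 1.31e-05), and Foxo4, a transcription factor that Akt inhibits (1.09 ± 0.18, adjusted p = 2.86e-05). Ins2 and Pappa2 were above the filter only through their differentiated libraries, so they had to be higher there. Their calls, and their part in the 19 and in the 5, are a description. The 2 genes that fell were Irs1, an insulin receptor substrate (-0.99 ± 0.23, adjusted p = 0.000857), and Pik3cb, a catalytic subunit of PI3-kinase (-0.90 ± 0.11, adjusted p = 6.41e-07). Akt2 was at 17.3 to 61.3 FPKM in growth and 61.8 to 180 after differentiation, without overlap between the states. Igfbp1, which lies 3539 bases from Igfbp3, was listed at 0 in all 20 libraries, as was the adaptor Irs4.

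The second comparison asked whether the members differed between lines by the type of the expressed H3. In growing cells 2 of 9 members tested, Igfbp5 and Igfbp6, were higher in the 6 H3.3-type lines than in the 3 H3.1/H3.2-type lines, where 0.246% of all genes passed (0.201% higher). Both calls depended on single lines. The ranges of the types did not overlap for 4 members, Igf2, Igfbp4, Igfbp5 and Igfbp6, all higher in the H3.3-type lines, while 9.94% of all genes did not overlap and 5.93% in that direction. Igfbp4 was near 0 in both types, with at most 0.105 FPKM (H3.2) against at least 0.109 (H3mm11), and differed by 0.17 (limma adjusted p = 0.974). The 7 members that did not pass had differences between -0.18 and 1.68 on the log2 scale with limma adjusted p of at least 0.718.

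Igfbp5 was at 2.59 FPKM in growing H3.1, 5.15 in H3t and 24.0 in H3.2. In the H3.3-type lines it was at 40.6 FPKM in H3mm11, 50.9 in H3mm16, 56.8 in H3mm13, 70.1 in H3.3, 89.8 in H3mm12 and 177 in H3mm7, and WT was at 106. The difference between the types was 3.14 ± 0.59 (SE) on the log2 scale (limma adjusted p = 0.0280). Its adjusted p rose to 0.129 without the H3.1 line, 0.257 without H3t, 0.0749 without H3.3, 0.0766 without H3mm12, 0.0780 without H3mm13 and 0.0559 without H3mm16, with the difference between 2.54 and 3.95 over all lines left out.

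Igfbp6 was at 66.1 FPKM in growing H3.1, 78.5 in H3t and 83.6 in H3.2, and in the H3.3-type lines at 123 FPKM in H3mm12, 129 in H3mm11, 138 in H3mm13, 142 in H3mm16, 148 in H3.3 and 149 in H3mm7. The types were each tightly grouped, and WT, at 75.3 FPKM, was among the H3.1/H3.2-type lines. The difference was 0.86 ± 0.16 (SE, limma adjusted p = 0.0280). Its adjusted p rose to 0.124 without H3.1, 0.102 without H3.2, 0.155 without H3t, 0.0659 without H3.3, 0.0576 without H3mm7, 0.104 without H3mm13 and 0.0750 without H3mm16, while the difference stayed between 0.76 and 0.93.

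Of the 8 myoblast and muscle markers, Myog alone passed between the types in growth. Myod1, the myoblast determination factor, was at 1.61 FPKM in H3.1, 11.7 in H3t and 25.1 in H3.2, against 26.7 to 110 in the H3.3-type lines (2.30 ± 0.61 SE, limma adjusted p = 0.169). Myog, which encodes myogenin and marks the start of differentiation, was at 0.106, 1.19 and 3.21 FPKM in those 3 lines and 7.35 to 23.1 in the 6 others, a difference of 2.56 ± 0.45 (SE, limma adjusted p = 0.0245). Of the others, Acta1 had the smallest adjusted p (2.62, adjusted p = 0.0871), Des, Cdh15, Ckm and Myh3 had differences of 0.24 to 0.63 and adjusted p of at least 0.535, and Myf5 had -0.18 (adjusted p = 0.937). The 8 muscle markers together summed to 293 to 361 FPKM in the 3 H3.1/H3.2-type lines and 450 to 860 in the H3.3-type lines. The part of these differences in the levels of Igfbp5 and Igfbp6 was not tested. Igf2 also was at 0.0326 to 0.634 FPKM in the H3.1/H3.2-type lines and 1.69 to 5.61 in the H3.3-type lines, with a fitted difference of 1.68 (95% confidence interval -0.98 to 4.35, limma adjusted p = 0.718). The fit shares 1 spread over both states. For Igf2 the SD on the log2 scale was 0.34 and 0.53 by type in growth. After differentiation, with the 2 zeros, it was 3.15 and 2.45, so this interval does not measure the spread of growing cells alone.

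**Figure D4:**
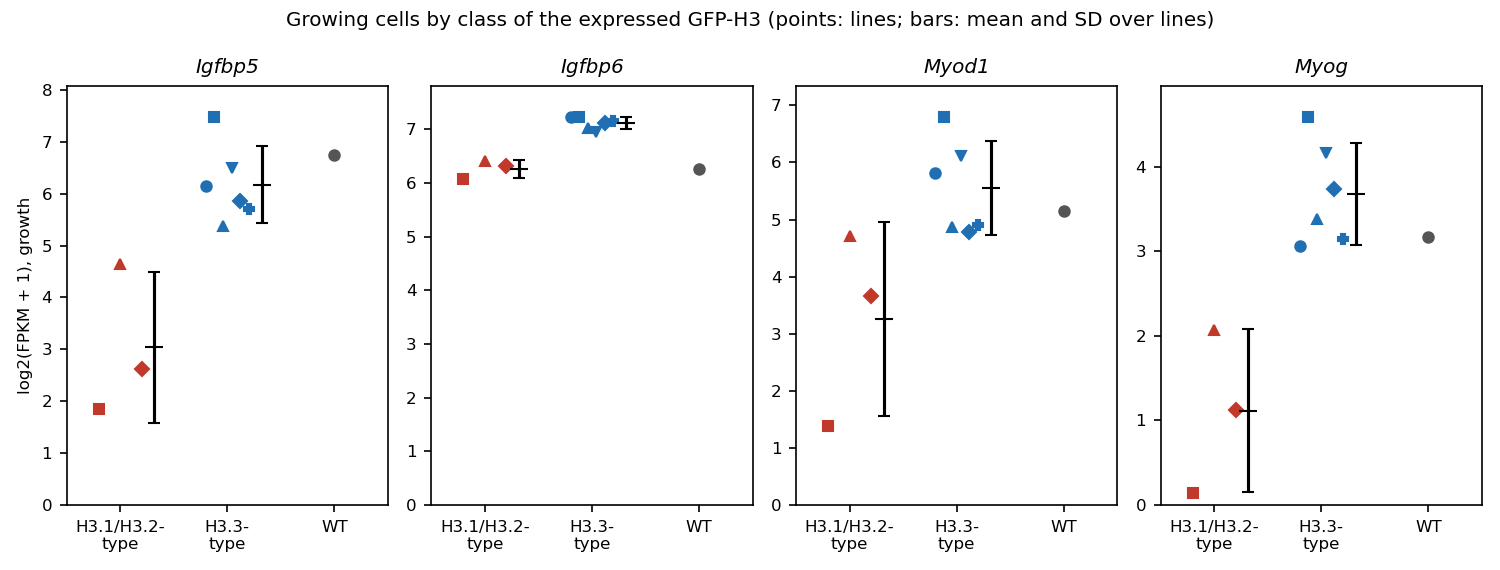
log2(FPKM + 1) in growth of Igfbp5, Igfbp6, Myod1 and Myog, by type of the expressed H3. Points are lines, with 1 marker shape per line as in the plot of all members, and black bars are the mean and SD over 3 H3.1/H3.2-type and 6 H3.3-type lines. The types do not overlap in any of the 4 panels, and WT is among the H3.3-type lines for Igfbp5, Myod1 and Myog and among the H3.1/H3.2-type lines for Igfbp6.

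After differentiation none of the 9 members passed between the types, where 2.46% of all genes did, and 2 had an unadjusted p below 0.05, as 20.1% of all genes had. Igfbp2 had 26.2 to 84.3 FPKM in the H3.3-type lines against 96.98 in H3.2, 101 in H3t and 836 in H3.1, and was the one member whose types did not overlap (6.07% of all genes, 2.94% in this direction). The difference was -2.04 (95% confidence interval -3.27 to -0.82, limma adjusted p = 0.0687), -1.02 without H3.1 (adjusted p = 0.274), and -2.57 without H3.2, where it passed (adjusted p = 0.0300). With each library scaled to the same sum it was -2.34 and passed (adjusted p = 0.0137). That scaling shifted the median of all genes by -0.26, and the difference of Igfbp2 relative to this median was -2.08. Under it 4.12% of the genes called between the types were higher in the H3.3-type lines, in place of 40.9%. Igfbp4 had a difference of 1.55 ± 0.69 (SE, adjusted p = 0.213). Igfbp5, so different in growth, had a difference of 0.32 (95% confidence interval -0.91 to 1.56, adjusted p = 0.805), with 264 to 335 FPKM in the H3.1/H3.2-type lines and 104 to 682 in the H3.3-type lines. Igfbp6 had a difference of -0.20 (95% confidence interval -0.54 to 0.13, adjusted p = 0.507).

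Of the 4 proliferation markers, 2 were lower in the H3.3-type lines after differentiation, Mki67 (-1.27 ± 0.32 SE, limma adjusted p = 0.0481) and Top2a (-1.73 ± 0.40, adjusted p = 0.0327), while Ccnb1 (-1.29, adjusted p = 0.0602) and Birc5 (-1.62, adjusted p = 0.0939) did not pass. Their sum was 14.9 to 75.4 FPKM in the H3.1/H3.2-type lines and 3.73 to 25.9 in the H3.3-type lines. Of the fibroblast and matrix markers, Dcn did not pass (0.02, adjusted p = 0.992) and the list sums overlapped, with 62.3 to 113 and 13.5 to 182 FPKM, but Col1a1, a fibrillar collagen chain, was at 8.20 to 51.0 FPKM in the H3.1/H3.2-type lines and 0.220 to 4.29 in the H3.3-type lines (-3.22 ± 0.73, adjusted p = 0.0317). Of the neuronal markers, Tubb3 was lower in the H3.3-type lines (-1.94 ± 0.42 SE, limma adjusted p = 0.0287). The neuronal sum was 29.96 to 116 FPKM in the H3.1/H3.2-type lines, with H3.1 the highest, and 4.52 to 24.6 in the H3.3-type lines. The part of these markers in the level of Igfbp2 was not tested. Of the 34 pathway genes 1 passed between the types, Pappa2, where 2.46% of all genes did. Since Pappa2 was above the filter only through the differentiated H3.3-type and WT libraries, its direction was set by the filter, and its values are a description. It was at 0.386 FPKM in differentiated H3.1, 0.897 in H3.2 and 0.907 in H3t, and at 1.89 in H3mm16, 2.53 in H3mm12, 2.85 in H3mm7, 2.94 in H3mm13, 2.95 in H3mm11 and 3.05 in H3.3, with 2.98 in WT. The fitted difference was 1.10 ± 0.14 (SE) on the log2 scale.

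Whether a member changed by a different amount in lines of the 2 types was tested as an interaction, in which no gene passed for the members or for all 10954 genes (limma, 1002 genes or 9.15% at an unadjusted p below 0.05). Without the trend and robust settings the count over all genes was also 0, and with quantile-normalised values it was 5, the most under any alternative, with no member among them. Of the members 3 had an unadjusted p below 0.05. Igfbp6 fell by 1.23-fold to 1.49-fold in the 3 H3.1/H3.2-type lines and 2.51-fold to 4.03-fold in the 6 H3.3-type lines, and the difference between the changes was -1.06 ± 0.23 (SE, p = 0.000188 in the limma fit, adjusted p = 0.224). Igfbp5 rose by 129-fold in H3.1, 54.8-fold in H3t and 10.99-fold in H3.2, while the H3.3-type lines lay between a fall of 1.71-fold in H3mm7 and a rise of 13.4-fold in H3mm16 (-2.82 ± 0.83 SE, adjusted p = 0.367). Igfbp2 had a difference of -1.86 ± 0.82 (SE, adjusted p = 0.514). Each change is built on the same growth values as the comparison in growth, so these values are not independent of it.

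The variation between lines was also described without the types, by Pearson's r of log2(FPKM + 1) over the 18 GFP-H3 libraries after the mean of each state was taken away. These correlations are over libraries that share a transgene system and 9 lines, and are given without p. Among members the strongest was that of Igfbp4 with Igf1r (r = -0.853, Spearman's rho = -0.717). In the 9 growth libraries Igfbp4 was at most 0.454 FPKM, with an SD of 0.16 on the log2 scale, against 1.62 in the 9 differentiated ones. Each r of Igfbp4 therefore rests mostly on the differentiated libraries. In differentiated cells Igf1r was at 3.37 FPKM in H3mm7 and 5.46 in H3.3, the lines with the highest Igfbp4, and at 13.7 in H3t, 13.4 in H3.1 and 13.03 in H3mm16, where Igfbp4 was below 1. WT, which was not among the 18, had Igf1r at 7.17 with Igfbp4 at 0.939, below the 8.11 of H3mm11 with Igfbp4 at 9.75. Igfbp5 and Igfbp6 had r = 0.650.

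**Figure D5:**
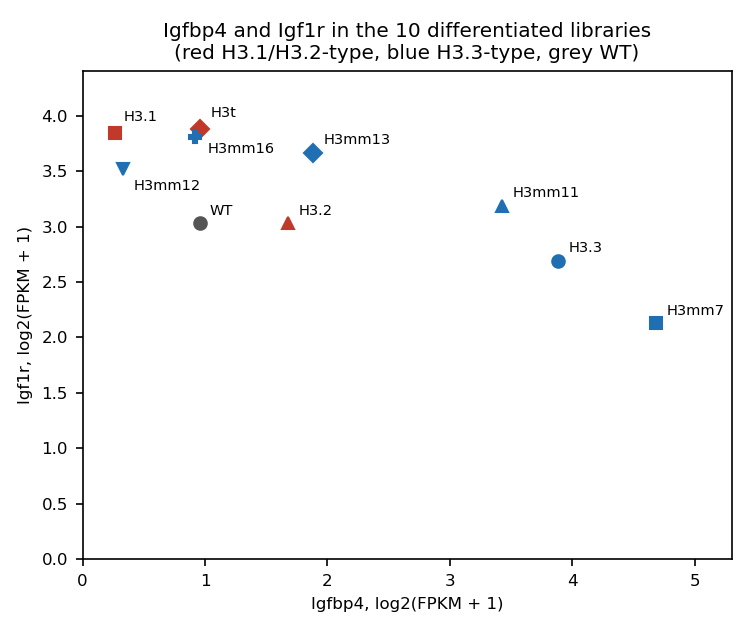
Igf1r against Igfbp4 in the 10 differentiated libraries, both as log2(FPKM + 1), 1 point per line. H3mm7, H3.3 and H3mm11 have the highest Igfbp4, with 9.75 to 24.6 FPKM, and H3mm7 and H3.3 the lowest Igf1r, with 3.37 and 5.46 FPKM.

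Of all other genes tested, those most like Igfbp4 were Atp2a3 (r = 0.979), which encodes a calcium pump of the endoplasmic reticulum, Cdsn (r = 0.969), which encodes corneodesmosin, and Rnf185 (r = 0.960), which encodes a ubiquitin ligase of the endoplasmic reticulum. In differentiated cells Cdsn was at 81.0 FPKM in H3mm7, 71.9 in H3.3 and 24.5 in H3mm11, and at most 5.75 in the other 7 libraries, so the same 3 lines were highest as for Igfbp4. Igfbp5 was most like Pdlim3 (r = 0.909), a protein of the muscle Z-disc, Myod1 (r = 0.886) and Coro2b (r = 0.882). Igfbp2 was most like Iqgap3 (r = 0.940), a scaffold protein of proliferating cells, Mutyh (r = 0.922), a DNA repair glycosylase, and Fscn1 (r = 0.921), an actin-bundling protein, and Iqgap3 too was highest in H3.1 after differentiation, with 5.09 FPKM against at most 2.18.

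For the receptors, the genes most like Igf1r were Baz2b (r = 0.939), Lnpep (r = 0.917), the insulin-regulated aminopeptidase, and Bmpr2 (r = 0.912), a receptor for bone morphogenetic proteins, and those most like Igf2r were Sorcs2 (r = 0.885), Gm4262 (r = 0.876) and Tspan8 (r = 0.876). Igfbp3 was most like Cd55 (r = 0.908), Slc44a4 (r = 0.809) and Tm6sf1 (r = 0.799), Igfbp6 most like Cnp (r = 0.884), Nudt17 (r = 0.852) and Cd34 (r = 0.806), and Igfbp7 most like Rab3a (r = 0.820), Gadd45g (r = 0.777) and Enho (r = 0.767). Igf2 was most like Oxld1 (r = 0.805), 0610009L18Rik (r = 0.801) and Myo10 (r = 0.786), and its values held the 2 zeros.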

How the data were processed

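mRNA-Seq of C2C12 cells was used (20 libraries). Per the labels and methods, the authors mapped GFP-H3 reads to mm9 with TopHat2 2.0.8 and deposited FPKM from cuffdiff (Cufflinks 2.0.1, default settings). How WT reads were mapped is not given in the sources used here. Columns headed H3mmT were taken as the H3t line, the one line name left. ChIP-Seq samples were not analysed here, and neither were the 3′-seq tables, which hold histone genes.

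limma 3.58.1 (R 4.3.3, trend and robust) was fitted to log2(FPKM + 1) for the 10954 of 22489 genes whose mean reached 1 FPKM, and p-values were adjusted by Benjamini-Hochberg over all genes tested. A fold change on this scale understates the change of low genes. Fold changes per line are ratios of FPKM. The fits by state, by type after differentiation and of the interaction were tested on simulated data. Lines served as replicates. The comparisons by type and the interaction came from 1 fit of the 18 GFP-H3 libraries, with 1 estimate of the spread of a gene for both states. The 2 states come from the same line, and their deviations from the state means correlated in every line (r = 0.273 to 0.877), so a fit with the line as a block was an alternative. Named genes were the members, up to 5 called pathway genes with the largest differences in each direction, 3 genes most like each member, and cell type markers. Actr3 and Morf4l2 were named after their values were seen. The members and lists were chosen with earlier results of these data known. The variant types follow the amino acid sequence. Promoter sequences are RefSeq (GRCm38.p6), positions GENCODE on mm9.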

Additional observations from a re-analysis of the deposited data

Results flagged for a closer look

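In each state, the highest and lowest of the 10 libraries were compared with the rest for each member by Dixon's ratio, the gap to the nearest library divided by the whole range on the log2(FPKM + 1) scale, with a critical value of 0.466. Of 20 groups tested 2 passed, where chance flags about 1 in 20. Igfbp2 in differentiated H3.1 was far above the other 9 libraries (836 FPKM, ratio 0.594). Igfbp5 in differentiated H3mm7 was far below the others (104 FPKM, ratio 0.496).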

How the results depend on the processing

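Alternatives were pseudocounts of 0.1 and 0.01 FPKM, no filter, a mean of at least 5 FPKM, quantile normalization, limma without trend and robust settings, the line as a replicate block, no WT, each line left out, and 2 added after seeing the data: libraries scaled to the same sum, and no libraries that list Igf2 at 0. Of 790 single-gene values, 747 kept their direction and side of the threshold, 29 lost the call, 2 gained it and 12 changed sign.

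With differentiation 9 members passed, and 8 to 9 with a line left out; pathway calls were 21, and 19 to 21. Igf2 lost its call with a pseudocount of 0.01 (2.89, adjusted p = 0.172). Igfbp7 lost it without a filter (adjusted p = 0.0916), without WT (0.0540) and without the libraries that list Igf2 at 0 (0.140). When libraries were scaled to the same sum, pathway calls fell to 13 and calls over all genes from 6419 to 5466. Under that scaling 40.2% of all calls were higher in place of 52.0%. With the line as a replicate block all 9 members passed, and the block changed no call of a member. In the interaction it called 3 genes in place of 0, no member among them (Igfbp6 adjusted p = 0.102).

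Between the types in growth, 2 members passed, 0 without a filter, 1 when scaled to the same sum, 1 without the libraries that list Igf2 at 0, and 0 to 2 with a line left out. Over all genes 27 passed, and 50 and 79 with pseudocounts of 0.1 and 0.01, 13 without a filter, 16 with a mean of at least 5, and 2 (without H3.1) to 28 with a line left out. After differentiation 0 members passed, 1 when scaled to the same sum, and 0 to 1 with a line left out; over all genes 269, 1770 and 8 (without H3.1) to 773 (without H3.2), with 107 without a filter, 156 with a mean of at least 5 and 41 without the libraries that list Igf2 at 0. Signs changed only for differences that did not pass. Between the types in growth these were Igf2r (-0.0264) and Igfbp4 (-0.000580) with quantile normalization, and with a line left out Igf1r (-0.0793 to 0.0306), Igfbp2 (-0.71 to 0.19) and Igfbp7 (-0.29 to 0.29). After differentiation it was Igf2 (-0.36 to 2.76), and in the interaction Igf2 (-2.24 to 1.12) and Igfbp3 (-0.0346 to 0.35, and -0.31 with a pseudocount of 0.01). The cause was not tested.

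The number of reads is unknown, so values below about 1 FPKM carry an unknown counting error, and each line and state has 1 library.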
